A study of Mus musculus with 9 samples.

Results

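The endoplasmic reticulum (ER) folding, chaperone and secretion machinery was followed in the liver of mice on 3 diets, together with the chaperones of the cytosol and mitochondria that share its gene families. Its members were chosen by gene symbol. The symbols were those of the protein disulfide isomerases (Pdia), the Sec genes of translocon, signal peptidase and COPII coat, the translocon-associated proteins (Ssr), the oligosaccharyltransferase (Ddost, Stt3), calreticulin (Calr), the J-domain proteins (Dnaj), the Hsp70, Hsp110 and Hsp90 families, the ER degradation genes (Edem, Sel1l), the COPI coat (Cop), Cacybp and the FK506-binding proteins (Fkbp). Of 5608 genes in the table, 66 matched, and the 63 with a mean of at least 1 TPM over the 9 libraries were members. TPM measures the abundance of a transcript as a share of all transcripts, corrected for its length. Just below this limit lay Fkbp1b (mean 0.207 TPM), Hspa12b (0.393 TPM) and Fkbp10 (0.654 TPM), and just above it Hspa2 (1.44 TPM), Dnajb5 (1.62 TPM) and Dnajc18 (2.18 TPM). By the place of work assigned here to the protein, 27 members were put in the ER, 11 in the secretory traffic between ER and Golgi, 20 in the cytosol or nucleus and 5 in mitochondria. The places were not measured. Single members of the cytosolic group, such as Dnajc14 and Dnajc25, can be placed otherwise, which would move the counts by place. Canx, Pdia3, Pdia4, Dnajb11, Rpn1, Rpn2, Sec61b, Hspa1a, Hspa1b, Hsph1, Hsp90aa1, Dnajb1 and Hspa9 were not analysed here.

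The libraries came from wild-type C57BL/6 J mice, 3 per group. FED mice had standard diet ad libitum. IF mice were deprived of food for 24 h 2 times a week and ate ad libitum in between, and FMD mice were given a fasting-mimicking diet of few calories for 3 days. All groups had water ad libitum, IF and FMD mice also had hydrogel, and the labels used here give no age or sex. Values below are listed in the order of the replicate labels, which are 1, 2 and 3 for the FED and IF mice and 1, 2 and 4 for the FMD mice. The RNA came from bulk liver tissue, so that fewer cells of a type and less RNA per cell cannot be told apart.

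The table holds part of each library, 26.3% to 29.3% of the TPM total in FED, 32.9% to 34.9% in IF and 34.9% to 43.0% in FMD libraries, and the depth is unknown. The 4665 genes with a mean of at least 1 TPM were tested on log2(TPM + 1), a scale that understates the change of low genes. Their median log2 fold change was 0.24 in IF vs FED, 0.48 in FMD vs FED and 0.24 in FMD vs IF, so results are also given for scaled values, in which each library was divided by its size factor, the median ratio of its genes to their geometric mean over libraries. Of 12 hepatocyte markers taken to check the tissue 0 were among the listed genes, while the hepatocyte genes Hp, Hpx and Ass1, chosen after their values were seen, were listed at 2154 to 7485 TPM in every library. Markers of other liver cells that were listed were Oit3 of endothelial cells (1 of 7), Dcn and Col1a1 of stellate cells (2 of 7) and Krt19 of bile duct cells (1 of 5). Dcn was at 64.1, 90.1 and 78.4 TPM in FED, 119.8, 156 and 146 TPM in IF and 213, 132 and 106 TPM in FMD, and Oit3 at 6.58, 7.63 and 9.28 TPM in FED, 6.35, 7.32 and 8.02 TPM in IF and 17.2, 15.98 and 8.85 TPM in FMD. Col1a1 did not follow Dcn, at 0.9, 1.63 and 0.93 TPM in FED, 0.95, 0.93 and 0.94 TPM in IF and 1.6, 0.86 and 0.27 TPM in FMD. Krt19 was at 0.95, 1.78 and 0.76 TPM in FED, 1.8, 2.06 and 1.02 TPM in IF and 1.26, 4.07 and 1.22 TPM in FMD. The part of these cells in the results was not tested. FMD replicate 1 stood apart: it had the highest TPM of the FMD libraries for 51 of the 63 members and for 71.8% of all genes tested. After scaling it was the highest for 29 of the 63 members and for 35.7% of all genes tested.

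Proteins bound for secretion, of which the liver makes large amounts for the blood, enter the ER through the Sec61 translocon, lose their signal peptide, receive glycans from the oligosaccharyltransferase and fold with BiP, GRP94, calreticulin and disulfide isomerases. COPII vesicles carry the folded cargo to the Golgi, COPI vesicles bring escaped proteins back, and misfolded proteins are sent to degradation. When unfolded proteins accumulate, the sensors IRE1, PERK and ATF6 raise the transcription of this machinery, and in the cytosol heat shock factor does the same for Hsp70, Hsp90 and their J-domain partners.

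Promoter sequences are shown because the ER stress response element (ERSE), the site of ATF6 with NF-Y, links the lumenal chaperones. RefSeq promoter windows of mouse build GRCm38.p6, 250 bases before to 50 bases after the transcription start, were matched by symbol for 55 of the 63 members. Searched on both strands, the ERSE letters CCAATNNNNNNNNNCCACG occurred in the windows of Hspa5, Hsp90b1, Calr, Pdia6 and Dnajc3, which are 5 of the 24 ER members with a window (20.8%), against 0.119% of all 32851 windows. They occurred in 0 of 17 cytosolic members and 0 of 11 secretory traffic members with a window. Among 3815 tested genes with a window 7 held the letters, the other two being Ero1b, an ER oxidase, and Syvn1, the Hrd1 ubiquitin ligase of ER degradation. The stretches below run 5′ to 3′ in the direction of the motif, with its fixed letters in capitals and 10 bases on each side.
Hspa5: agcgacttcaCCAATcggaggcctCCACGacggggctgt
Hsp90b1, match farther from the start: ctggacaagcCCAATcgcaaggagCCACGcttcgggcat
Hsp90b1, match nearer to the start: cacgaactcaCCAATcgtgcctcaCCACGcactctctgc
Calr: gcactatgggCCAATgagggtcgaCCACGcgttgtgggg
Pdia6: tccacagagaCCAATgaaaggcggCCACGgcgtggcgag
Dnajc3: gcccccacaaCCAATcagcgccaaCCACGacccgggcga
The first base of each match lay 65 bases before the start in Hspa5 (window chr2:34771840-34772139, plus strand), 212 and 107 bases before it in Hsp90b1 (chr10:86705395-86705694, minus strand), 162 in Calr (chr8:84846882-84847181, minus strand), 98 in Pdia6 (chr12:17266339-17266638, plus strand) and 105 in Dnajc3 (chr14:118937682-118937981, plus strand).

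A second element, the unfolded protein response element with the letters TGACGTGG, which binds XBP1 and ATF6, was found on another part of the machinery. Its members were the coat genes Sec23a, Sec24d and Copb1 (3 of 11 secretory traffic members with a window, 27.3%) and Dnajc25. They compare with 0.676% of all windows and 0 of the 24 members put in the ER. Dnajc25 is grouped here with the cytosol, a place that was assigned and not measured. The stretches are given in the same way.
Sec24d: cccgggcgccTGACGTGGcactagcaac
Sec23a: tcctccccttTGACGTGGcagaggcggc
Copb1: agtccttggcTGACGTGGaagggggcgg
Dnajc25: cgcggcctgcTGACGTGGaccgggctgc
The windows lay at chr3:123267246-123267545 (plus strand), chr12:59011968-59012267 (minus strand), chr7:114254631-114254930 (minus strand) and chr4:59002943-59003242 (plus strand). The heat shock element GAANNTTCNNGAA was found in the windows of Dnajb6 and Sec62, 2 of 55 members (3.64%), against 0.603% of all windows. Hspa8, Hsp90ab1, Hspa13, Sec61a1, Dnajc5, Dnajc11, Dnajc18 and Dnajc30 had no window in the table used. These matches are letters in a window, and binding was not measured.

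In IF vs FED livers all members called lower belonged to the ER (plot of fold changes by role). Of the 27 ER members 4 were called lower (Pdia6, Sec61g, Ddost and Calr) and 1 higher (Stt3b), and 16 had a log2 fold change below 0, with a median of -0.08. The 20 cytosolic chaperones had a median of 0.30, with 17 above 0, 2 called higher (Fkbp5 and Dnajc21) and 0 lower. Above 0 were 85% of the cytosolic chaperones, 40.7% of the ER members and 81.1% of all genes tested. After scaling these shares were 55%, 25.9% and 49.8%. A call needed a Benjamini-Hochberg adjusted p under 0.05 from limma and a change over 1.5-fold. Over all 63 members 6 were called higher and 4 lower, against 10.3% and 1.59% of all genes tested, and the median was 0.20, against 0.24 for all genes. After scaling, 2 members were called higher and 9 lower, against 3.69% and 3.45% of all genes. Of the 9, 8 were ER members, and the ER median was -0.36 on the scaled values, against 0.02 for the cytosolic chaperones and 0.00 for all genes. The 9 became 5 without FED replicate 1 and 4 without IF replicate 2.

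In FMD vs FED livers most calls were of cytosolic chaperones and secretory traffic members. As deposited, 31 members were called higher and 0 lower, against 35.5% and 1.61% of all genes tested, and the members had a median of 0.54 on the log2 scale, compared with 0.48 for all genes. The 31 were 13 of 20 cytosolic chaperones, 8 of 11 secretory traffic members, 8 of 27 ER members and 2 of 5 mitochondrial members. After scaling, 7 members were called higher and 5 lower, against 5.49% and 5.64% of all genes. The 7 higher were Fkbp5, Hspa8, Hspa2 and Hsp90ab1 of the cytosol and Sec23a, Sec22c and Sec24d of the COPII group, and 4 of the 5 lower were ER members (Pdia6, Calr, Ddost and Sec61g). Without FMD replicate 1 the counts as deposited were 19 higher and 1 lower, and the shares of all genes without it are not given here. On the scaled values the 5 lower became 3 without any 1 of the FED libraries and without IF replicate 2 or 3, which enter through the shared spread.

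In FMD vs IF livers 11 members were called higher and 0 lower, against 4.67% and 0.472% of all genes tested. They were 5 cytosolic chaperones, 4 ER members and 2 coat genes, and 60 of the 63 members had a log2 fold change above 0, with a median of 0.42 against 0.24 for all genes. The 60 were 95.2% of the members, and 83.6% of all genes tested also lay above 0. On the scaled values 45 members (71.4%) and 49.7% of all genes did. After scaling, 2 were called higher (Sec24d and Dnajb9) and 0 lower, against 1.11% and 1.11% of all genes. This comparison was the least firm of the 3: 0 members were called without any 1 of the IF libraries or when the 2 groups were fitted alone, 6, 7 and 3 without FED replicate 1, 2 and 3, 6 without FMD replicate 1, and 19 and 21 without FMD replicate 2 and 4. With a replicate block 24 were called higher. On the scaled values there were 7 without FMD replicate 2, 4 without FMD replicate 4, 1 without FED replicate 1 and 0 without any other library. Shares of all genes called under these alternatives are not given here. A change of the members can therefore not be told from one of the whole table. At an unadjusted p under 0.05 (limma), 36 members were higher and 0 lower as deposited, and 21 higher and 4 lower after scaling. Of the 4665 genes tested, 1646 as deposited and 1100 after scaling passed this limit in either direction.

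**Figure D1:**
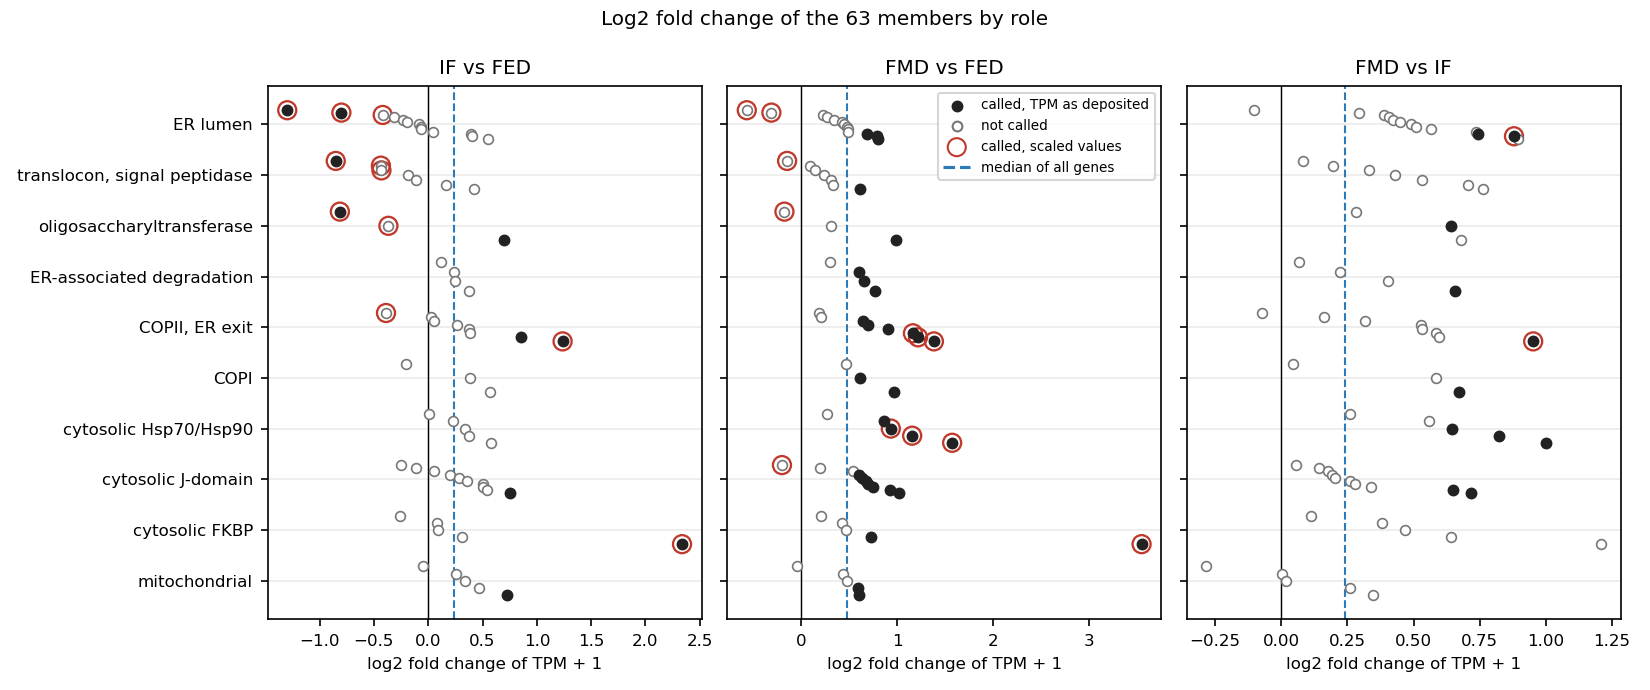
Log2 fold change of TPM + 1 for the 63 members in 10 role groups, in 3 panels, 1 for each comparison. Filled points were called with TPM as deposited, red rings mark calls after scaling, the solid line is 0 and the dashed line the median of all genes tested (0.24, 0.48 and 0.24). In IF vs FED 4 ER members were called lower, while in FMD vs FED all 31 calls were higher.

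The 13 chaperones and oxidoreductases of the ER lumen held the largest fall. Pdia6 (NCBI gene 71853), a disulfide isomerase that binds BiP, was at 214, 172 and 200.4 TPM in FED, 86.7, 64.6 and 86.6 TPM in IF and 181, 89.9 and 139 TPM in FMD libraries. Each IF library was below each FED and each FMD library, and the FMD libraries overlapped with FED. Its log2 fold change in IF vs FED was -1.30 ± 0.23 (SE, adjusted p = 0.00336, limma), and it kept the call under all 16 alternatives, those without a library included. In FMD vs FED it was -0.56 ± 0.23 as deposited, under the 1.5-fold limit, and -1.11 after scaling (adjusted p = 0.0042), where it was called lower.

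Calr (NCBI gene 12317), calreticulin, is the lectin chaperone of new glycoproteins. It was at 768, 649 and 765 TPM in FED, 496, 360.1 and 404 TPM in IF and 694, 558 and 517 TPM in FMD libraries, with all IF below all FED libraries. The log2 fold change in IF vs FED was -0.80 ± 0.16 (SE, adjusted p = 0.00584) and also held under all 16 alternatives. For FMD vs FED it was -0.31 (adjusted p = 0.0991) as deposited and -0.86 (adjusted p = 0.00156) after scaling.

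BiP, encoded by Hspa5 (NCBI gene 14828), is the Hsp70 of the lumen and the partner of most of the other proteins in this group. It was at 375, 382 and 389 TPM in FED, 308, 240.0 and 314 TPM in IF and 860.1, 405 and 431 TPM in FMD libraries. All IF libraries lay below the FED libraries and all FMD libraries above them, the FMD library of replicate 1 far above the other two. No comparison passed as deposited, with -0.42 ± 0.25 in IF vs FED (adjusted p = 0.227) and 0.48 ± 0.25 in FMD vs FED (adjusted p = 0.105). On the scaled values it was called lower in IF vs FED at -0.70 (adjusted p = 0.0375), and in FMD vs FED it turned to -0.08. Hsp90b1, which encodes GRP94, was at 230.3, 281 and 309.9 TPM in FED, 218, 236 and 237 TPM in IF and 403, 305 and 287 TPM in FMD, with -0.24 in IF vs FED as deposited and -0.52 after scaling, and it was not called in any comparison.

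Of the J-domain partners of BiP, Dnajb9 was called higher with FMD. Its product, ERdj4, delivers clients to BiP and holds back IRE1, and its transcript was at 48.4, 46.0 and 42.0 TPM in FED, 46.0, 41.9 and 40.8 TPM in IF and 105, 63.2 and 75.9 TPM in FMD. FED and IF libraries overlapped, and each FMD library was above all of them. It rose in FMD vs FED (0.80 ± 0.17, adjusted p = 0.00291) and in FMD vs IF (0.88 ± 0.17, adjusted p = 0.0201), and the latter call held after scaling (0.61, adjusted p = 0.0273). Dnajc3 (P58IPK), a co-chaperone of BiP that also inhibits PERK, was at 46.0, 47.6 and 49.8 TPM in FED, 48.0, 43.4 and 45.01 TPM in IF and 80.4, 52.2 and 73.7 TPM in FMD, and its 0.56 in FMD vs IF (adjusted p = 0.0487) was below the 1.5-fold limit.

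The remaining calls among lumenal members came from comparisons with FMD. Fkbp14 and Fkbp9, prolyl isomerases of the ER, rose in FMD vs FED by 0.80 and 0.68 on the log2 scale, and by 0.37 and 0.16 after scaling, where neither was called. Hspa13, an Hsp70-like ATPase of microsomes, was at 9.69, 10.3 and 8.94 TPM in FED, 7.62, 7.05 and 8.03 TPM in IF and 18.9, 10.4 and 11.9 TPM in FMD and rose in FMD vs IF (0.74, adjusted p = 0.0385), a call lost after scaling. The 5 members with an ERSE in the window had log2 fold changes in IF vs FED of -1.30 (Pdia6), -0.80 (Calr), -0.42 (Hspa5), -0.24 (Hsp90b1) and -0.07 (Dnajc3), or -1.58, -1.08, -0.70, -0.52 and -0.35 after scaling. All lay below 0, as did 878 of the 4665 genes tested as deposited and 2339 after scaling. Of the 13 lumenal members 10 did after scaling. In FMD vs FED the 5 went in both directions as deposited, at -0.56, -0.31, 0.48, 0.27 and 0.49 in the same order. After scaling they were at -1.11, -0.86, -0.08, -0.28 and -0.05.

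Among the 7 members of translocon and signal peptidase 1 was called lower in IF vs FED as deposited (1.59% of all genes) and 3 after scaling (3.45% of all genes). Sec61g, the gamma subunit of the Sec61 channel, was at 123, 119.8 and 124 TPM in FED, 64.3, 67.3 and 70.6 TPM in IF and 185, 75.1 and 96.9 TPM in FMD. Its 3 IF libraries lay at about the same level, far below the FED libraries, while FMD ran from below to above FED. The log2 fold change in IF vs FED was -0.85 ± 0.25 (SE, adjusted p = 0.0343). This call was lost without a filter on low genes and without any 1 of the 6 FED and IF libraries, and it held after scaling at -1.13 (adjusted p = 0.00636). In FMD vs FED it was -0.14 as deposited and -0.69 after scaling (adjusted p = 0.0336), where it was called lower.

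Sec61a1, the pore of the channel, was at 85.4, 75.4 and 77.1 TPM in FED, 64.1, 49.3 and 63.2 TPM in IF and 153, 71.9 and 91.0 TPM in FMD, and Ssr1, a translocon-associated protein, at 28.6, 24.6 and 26.4 TPM in FED, 20.1, 18.4 and 19.4 TPM in IF and 44.0, 20.2 and 25.5 TPM in FMD. For each of them all IF libraries were below all FED libraries, and the highest value was that of FMD replicate 1. Neither was called as deposited in IF vs FED (-0.43 ± 0.23, adjusted p = 0.187, and -0.44 ± 0.22, adjusted p = 0.169), and both were called lower after scaling (-0.71 and -0.71). Sec62, which helps import after translation, was the only member of this group called in FMD vs FED as deposited (0.61, adjusted p = 0.00819), at 0.08 after scaling. On the scaled values 6 of the 7 members lay below 0 in IF vs FED, with a median of -0.47, while 2339 of the 4665 genes tested lay below 0.

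**Figure D2:**
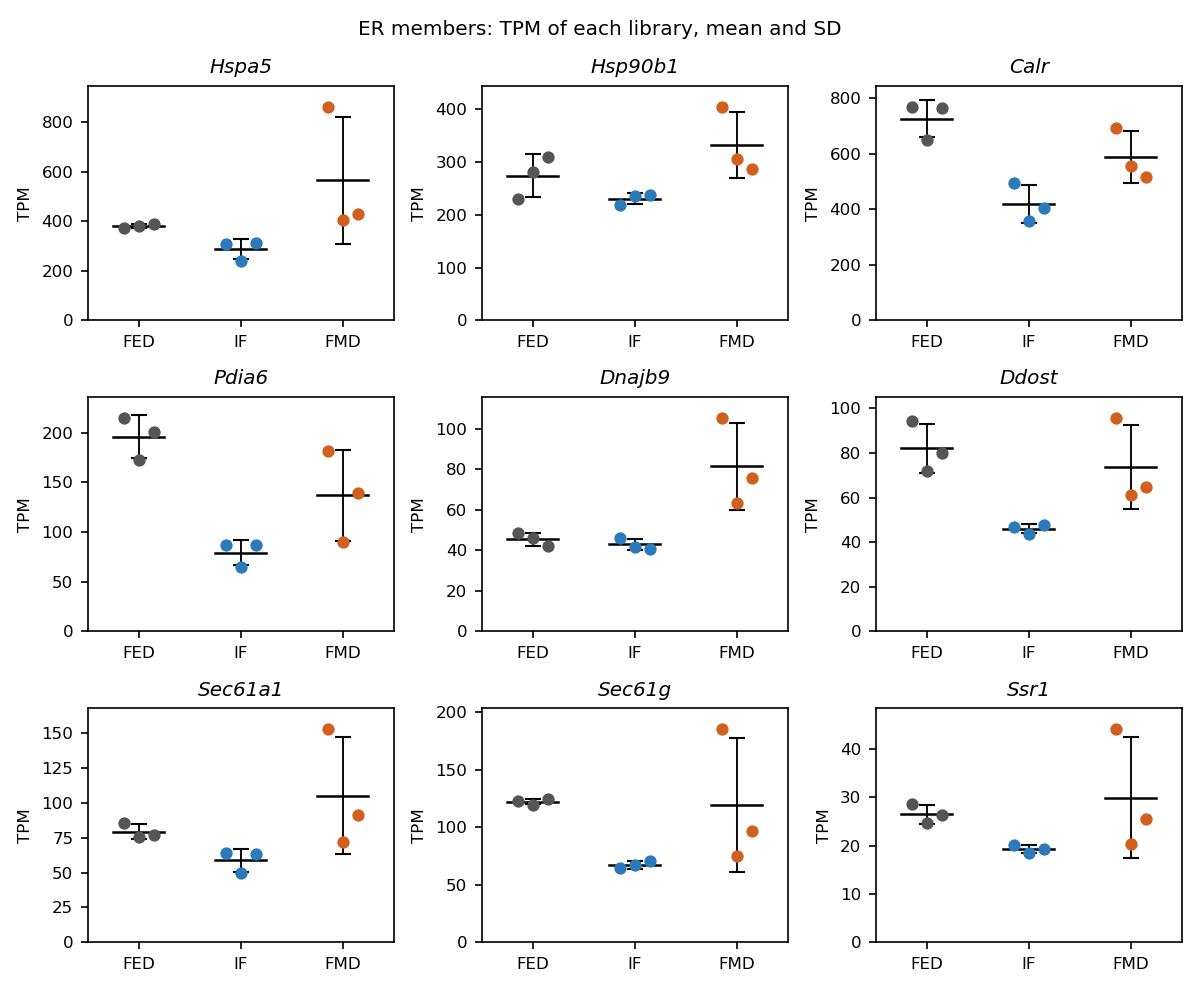
TPM of 9 ER members in each library (y axis from 0), with FED, IF and FMD on the x axis, points for libraries, and bars for the mean and SD of 3 libraries. Pdia6, Calr, Ddost and Sec61g were lower in every IF than in every FED library, and the FMD point of replicate 1 was the highest of the FMD group in all 9 panels.

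The oligosaccharyltransferase transfers the glycan to new proteins, with Stt3a as catalytic subunit beside the translocon and Stt3b as that of the complex that acts later. Ddost (NCBI gene 13200), a subunit of both complexes, was at 94.1, 72.1 and 79.8 TPM in FED, 46.6, 43.7 and 47.6 TPM in IF and 95.5, 61.0 and 64.5 TPM in FMD. It fell in IF livers (-0.81 ± 0.17 vs FED, adjusted p = 0.00817) under all 16 alternatives, and rose in FMD vs IF (0.64 ± 0.17, adjusted p = 0.0481), a call lost under 11 of 16 alternatives. The FMD vs FED value was -0.72 after scaling (adjusted p = 0.00376).

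The catalytic subunits differed from each other. Stt3b was at 20.8, 21.0 and 22.5 TPM in FED, 37.1, 36.3 and 33.0 TPM in IF and 55.7, 42.1 and 34.7 TPM in FMD, and all IF and FMD libraries were above all FED libraries. It rose in IF livers (0.70 ± 0.16, adjusted p = 0.0106) and in FMD livers (0.98 ± 0.16, adjusted p = 0.000768) vs FED, while after scaling the values of 0.43 and 0.45 were under the 1.5-fold limit. Stt3a was at 25.1, 23.1 and 24.0 TPM in FED, 20.8, 16.6 and 18.1 TPM in IF and 44.4, 24.3 and 25.1 TPM in FMD. It was -0.37 in IF vs FED as deposited (adjusted p = 0.199) and called lower after scaling (-0.64, adjusted p = 0.0156).

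A ratio of 2 genes within a library is free of scaling. The Stt3b to Stt3a ratio was 0.831, 0.908 and 0.940 in FED, 1.79, 2.19 and 1.82 in IF and 1.25, 1.74 and 1.38 in FMD libraries. It was above 1 in every library of the restricted mice and below 1 in every FED library. The pairs for such ratios were chosen after the values were seen, and no test was made of them.

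Of the 4 members of ER-associated degradation 0 were called in IF vs FED, where they ranged from 0.11 to 0.38, and 3 were called higher in FMD vs FED (35.5% of all genes). These were Edem3, a mannosidase-like protein that marks misfolded glycoproteins (0.77, adjusted p = 0.00296), and the membrane J-domain proteins Dnajc18 (0.65) and Dnajb12 (0.60). Sel1l, the adaptor of the Hrd1 ligase, was at 24.7, 26.3 and 27.9 TPM in FED, 33.2, 31.1 and 29.3 TPM in IF and 33.9, 28.9 and 35.6 TPM in FMD, with 0.30 in FMD vs FED (adjusted p = 0.0383), under the 1.5-fold limit. After scaling none of the 4 was called in any comparison, at -0.23 to 0.27 in FMD vs FED.

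Among the 8 genes of COPII coat and ER exit, Sec23a and Sec24d had the highest log2 fold changes in FMD vs FED as deposited, and Sec22c the highest in IF vs FED. Sec23a, an inner coat subunit, was at 21.7, 21.7 and 22.4 TPM in FED, 47.0, 40.5 and 34.5 TPM in IF and 74.3, 65.3 and 41.7 TPM in FMD. All IF and FMD libraries were above all FED libraries, which lay within 1 TPM of each other. It rose in IF livers (0.85 ± 0.19, adjusted p = 0.0115) and in FMD livers (1.38 ± 0.19, adjusted p = 0.000428) vs FED. After scaling only the FMD call remained (0.85, adjusted p = 0.00357), the IF value being 0.58, just under 1.5-fold.

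Sec24d, a subunit that binds cargo, was at 25.9, 24.3 and 21.6 TPM in FED, 36.3, 24.8 and 26.8 TPM in IF and 77.9, 50.4 and 46.8 TPM in FMD. FED and IF libraries overlapped, and each FMD library was above them. It rose in FMD vs FED (1.22 ± 0.20, adjusted p = 0.000925) and in FMD vs IF (0.95 ± 0.20, adjusted p = 0.0282), and both calls held after scaling (0.68 and 0.68). Sec22c, a relative of the Sec22 vesicle proteins, was at 2.08, 2.29 and 2.29 TPM in FED, 7.67, 6.90 and 5.37 TPM in IF and 6.45, 5.59 and 6.65 TPM in FMD. It was low in FED and at about the same level in IF and FMD livers. It rose in IF livers (1.24 ± 0.14, adjusted p = 0.000346) and in FMD livers (1.16 ± 0.14, adjusted p = 0.000169) vs FED under all 16 alternatives, and between FMD and IF it differed by -0.07 (95% interval from -0.37 to 0.23).

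The paralog of Sec23a was lower in each IF than in each FED library. Sec23b, named here after its values were seen, was at 25.2, 23.7 and 21.7 TPM in FED, 21.2, 15.99 and 16.4 TPM in IF and 42.0, 20.2 and 23.8 TPM in FMD and was called lower in IF vs FED after scaling (-0.66, adjusted p = 0.0309). The Sec23a to Sec23b ratio was 0.860, 0.915 and 1.03 in FED, 2.22, 2.53 and 2.11 in IF and 1.77, 3.24 and 1.76 in FMD libraries, without overlap between FED and either diet. Sec24b and Sec13, a cargo subunit and an outer coat subunit, rose in FMD vs FED by 0.91 and 0.64 on the log2 scale, and were at 0.44 and 0.09 after scaling.

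Of the COPI coat, which returns vesicles to the ER, Copb1, the beta subunit, was at 32.9, 35.4 and 35.3 TPM in FED, 47.5, 45.4 and 42.9 TPM in IF and 93.9, 64.0 and 52.9 TPM in FMD. Its level rose in FMD vs FED (0.96 ± 0.18, adjusted p = 0.00161) and had 0.42 after scaling. Copz2, a zeta subunit, rose in FMD vs FED (0.61, adjusted p = 0.00882), and Cope, the epsilon subunit, in FMD vs IF (0.67, adjusted p = 0.0309). Neither was called after scaling. The 4 members with the TGACGTGG letters, Sec23a, Sec24d, Copb1 and Dnajc25, were each called higher in FMD vs FED as deposited, where 35.5% of all genes and 8 of the 11 secretory traffic members were, and Sec23a and Sec24d also after scaling (5.49% of all genes).

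The constitutive Hsp70 and Hsp90 of the cytosol rose with the fasting-mimicking diet. Hspa8 (Hsc70), the main Hsp70 of unstressed cells, was at 610.2, 519 and 649 TPM in FED, 875, 832 and 935 TPM in IF and 2341, 1938 and 1199 TPM in FMD. The groups did not overlap, with IF between FED and FMD. It rose in FMD vs FED (1.57 ± 0.21, adjusted p = 0.000354) and, after scaling, by 1.02 (adjusted p = 0.00317). In FMD vs IF it rose by 0.999 ± 0.21 (adjusted p = 0.029), a call lost under 7 of 16 alternatives, scaling among them (0.73, adjusted p = 0.0502). In IF vs FED the value was 0.57 ± 0.21 (adjusted p = 0.0713). Hspa8 has processed pseudogenes in the mouse genome, and how shared reads were assigned is not given in the sources used here.

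Hsp90ab1, the constitutive cytosolic Hsp90, showed the same order, at 376, 355 and 435 TPM in FED, 483, 485 and 498 TPM in IF and 1036, 896 and 694 TPM in FMD. Its FMD vs FED log2 fold change was 1.16 ± 0.15 (SE, adjusted p = 0.000297), and 0.60 after scaling, also called. FMD vs IF was 0.82 ± 0.15 (adjusted p = 0.0193), a call lost under 5 of 16 alternatives, scaling among them (0.55). IF vs FED was 0.34 ± 0.15 (adjusted p = 0.126), and 0.06 after scaling, where FED and IF libraries overlapped. Hspa2, an Hsp70 family member known from the testis, was low at 0.620, 0.550 and 1.05 TPM in FED, 1.22, 1.39 and 1.12 TPM in IF and 1.70, 2.53 and 2.77 TPM in FMD and was called higher in FMD vs FED (0.93, adjusted p = 0.00115, scaled 0.64). Cacybp, which binds the ubiquitin ligase Siah1 and calcyclin, was at 16.4, 14.2 and 15.7 TPM in FED, 17.7, 17.3 and 19.5 TPM in IF and 33.7, 24.5 and 29.3 TPM in FMD, and was called higher in FMD vs FED (0.87, adjusted p = 0.000648) and FMD vs IF (0.64, adjusted p = 0.0266), but was called in neither after scaling.

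The cytosolic chaperones were also set against their ER relatives within each library. Hspa8 to Hspa5 was 1.63, 1.36 and 1.67 in FED, 2.84, 3.47 and 2.98 in IF and 2.72, 4.78 and 2.78 in FMD libraries. Hsp90ab1 to Hsp90b1 was 1.63, 1.26 and 1.40 in FED, 2.21, 2.06 and 2.10 in IF and 2.57, 2.94 and 2.42 in FMD libraries, with no overlap between any of the 3 groups. Summed over all members, the ER to cytosol ratio was 1.64, 1.70 and 1.56 in FED, 0.960, 0.870 and 0.896 in IF and 0.831, 0.637 and 0.919 in FMD libraries, a sum to which Calr, Hspa5, Hspa8 and Hsp90ab1 contribute most. Both restricted groups lay below FED and overlapped with each other. The summed TPM behind it was 2598 ± 112 (SD, n = 3) in FED, 1911 ± 119 in IF and 2895 ± 719 in FMD for the ER members, and 1595 ± 135, 2103 ± 60.4 and 3681 ± 848 for the cytosolic chaperones.

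**Figure D3:**
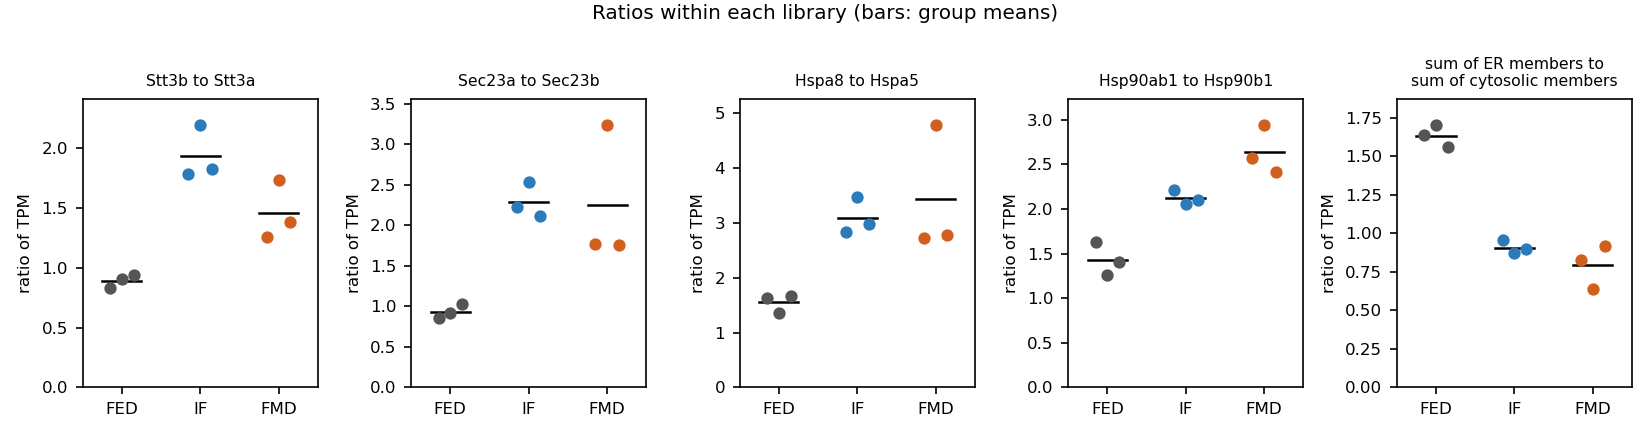
Ratio of TPM within each library (y axis from 0) for 4 pairs of genes and for the summed ER and cytosolic members, with FED, IF and FMD on the x axis, points for libraries and bars for group means. The first 4 ratios were higher in every IF and FMD library than in every FED library, and the ER to cytosol ratio was lower.

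Of the 10 J-domain proteins of cytosol and nucleus, 7 were called higher in FMD vs FED as deposited (35.5% of all genes). After scaling 0 were called higher and 1 lower, against 5.49% and 5.64% of all genes. Dnaja1, a main J-domain partner of Hsc70, was at 75.7, 73.1 and 82.2 TPM in FED, 94.8, 90.0 and 96.3 TPM in IF and 162, 153 and 129 TPM in FMD, without overlap between the groups as deposited. After scaling its FED and IF libraries overlapped. It rose in FMD vs FED (0.93 ± 0.12, adjusted p = 0.000248) and FMD vs IF (0.65 ± 0.12, adjusted p = 0.0193), and had 0.38 and 0.38 after scaling. Dnajc21, of ribosome maturation, was at 7.71, 9.86 and 8.85 TPM in FED, 14.1, 18.2 and 14.5 TPM in IF and 21.1, 15.99 and 19.5 TPM in FMD, and rose in IF vs FED (0.76 ± 0.15, adjusted p = 0.00568) and FMD vs FED (1.02 ± 0.15, adjusted p = 0.000491). Its scaled values were 0.50 and 0.50, under the 1.5-fold limit. Further genes among the 7 were Dnajb6 (0.75), which holds back aggregation, and Dnajc5 (0.69), the cysteine string protein. Dnajb2 was called higher in FMD vs IF (0.72, adjusted p = 0.027), a call lost under 6 of 16 alternatives, scaling among them (0.45). Dnaja4, named after its values were seen, was called lower in FMD vs FED after scaling (-0.59, adjusted p = 0.0424), at -0.20 as deposited.

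Fkbp5 (FKBP51), an Hsp90 co-chaperone known to be induced by glucocorticoids, had the largest change of all members. It was at 2.03, 4.69 and 5.31 TPM in FED, 21.7, 30.9 and 18.4 TPM in IF and 72.9, 66.2 and 33.9 TPM in FMD. The 3 groups did not overlap, with the order FED, IF, FMD. It rose in IF livers (2.34 ± 0.33, adjusted p = 0.00119) and in FMD livers (3.54 ± 0.33, adjusted p = 4.6e-05) vs FED, by 2.11 and 3.05 after scaling, under all 16 alternatives. FMD vs IF was 1.21 ± 0.33 (adjusted p = 0.051) and was not called. Its relative Fkbp4 (FKBP52), which serves the same steroid receptor complexes, was at 100.2, 84.5 and 106 TPM in FED, 80.1, 76.1 and 85.4 TPM in IF and 128, 91.0 and 119 TPM in FMD. Its FED libraries overlapped both diets, and each FMD library was above each IF library, with -0.26 in IF vs FED (adjusted p = 0.21) and 0.21 in FMD vs FED (adjusted p = 0.222). Fkbp1a (FKBP12), the target of FK506 and rapamycin, was called higher in FMD vs FED (0.73, adjusted p = 0.0151), a call lost after scaling and without FMD replicate 1.

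**Figure D4:**
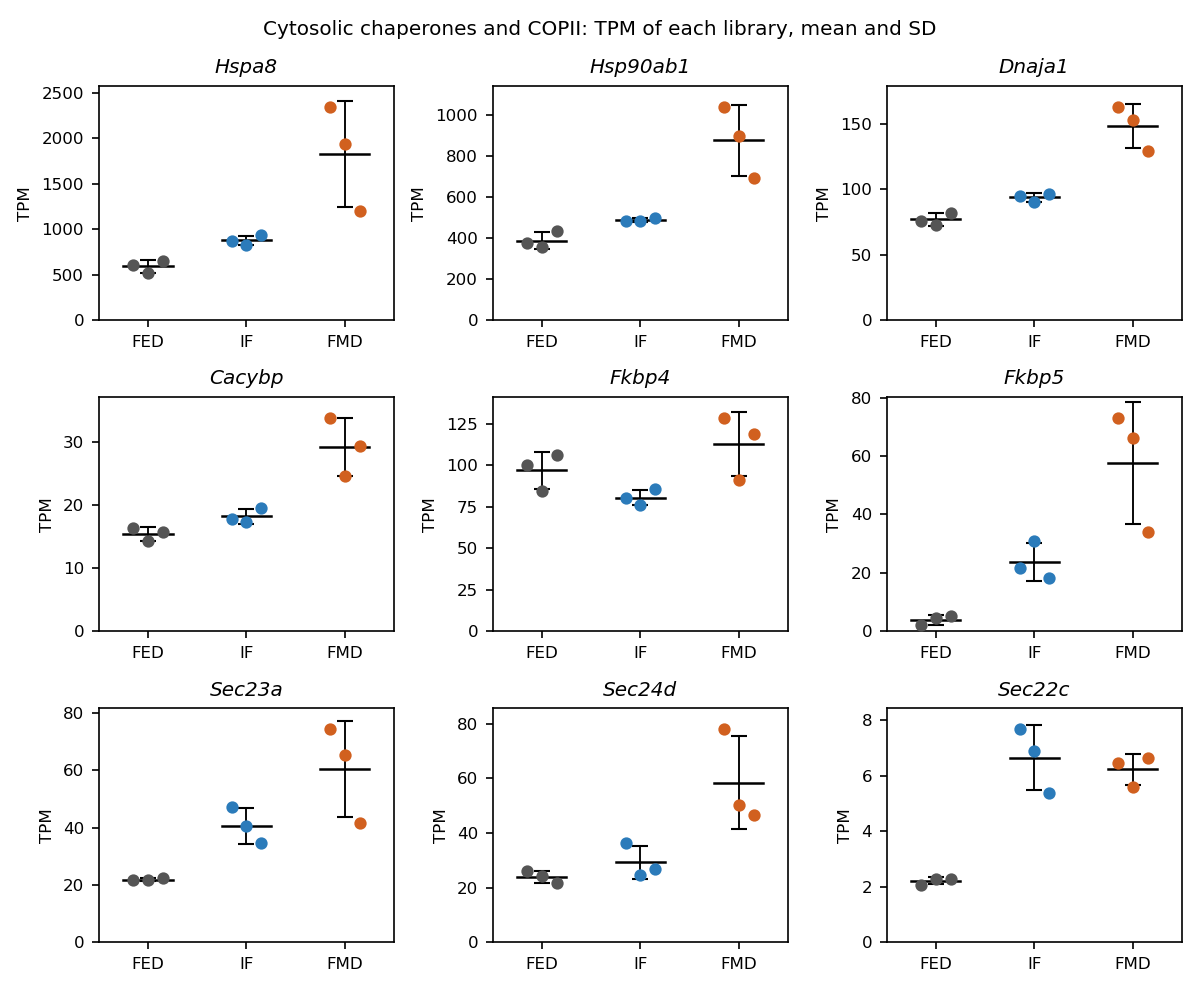
TPM of 6 cytosolic chaperones and 3 COPII genes in each library (y axis from 0), with FED, IF and FMD on the x axis, points for libraries, and bars for the mean and SD of 3 libraries. In TPM as deposited, Hspa8, Hsp90ab1, Dnaja1, Cacybp and Fkbp5 were ordered FED, IF, FMD without overlap. After scaling, which is not shown here, FED and IF overlapped for Hsp90ab1, Dnaja1 and Cacybp. Fkbp4 overlapped between FED and both diets, and Sec22c was at a like level in IF and FMD.

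Of the 5 mitochondrial J-domain members 1 was called in the IF and 2 in the FMD comparison with FED, where 10.3% and 35.5% of all genes were called higher. Dnajc30 was at 23.6, 21.4 and 23.6 TPM in FED, 42.1, 38.5 and 34.8 TPM in IF and 33.0, 36.7 and 25.3 TPM in FMD and rose in IF vs FED (0.72 ± 0.14, adjusted p = 0.00636), with 0.45 after scaling. Dnajc15 and Dnajc11 were called higher in FMD vs FED as deposited (0.60 and 0.60), at 0.05 and 0.07 after scaling. None of the 5 was called after scaling in any comparison.

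Leaving out FMD replicate 1 moved several ER members. Without it, the FMD vs FED log2 fold change of Hspa5 was 0.13 in place of 0.48, and that of Pdia6 was -0.79 (adjusted p = 0.00611), which was then called lower. After scaling and without this library 11 members were called in FMD vs FED, and the share of all genes called in that fit is not given here. Lower were Pdia6 (-1.23), Sec61g (-0.95), Calr (-0.87), Ddost (-0.80) and Ssr1 (-0.63), all of the ER, and higher were Fkbp5 (2.96), Hspa8 (0.93), Hspa2 (0.83), Sec22c (0.80), Sec23a (0.79) and Hsp90ab1 (0.59), of cytosol and COPII group. Sec24d was no longer among them.

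**Figure D5:**
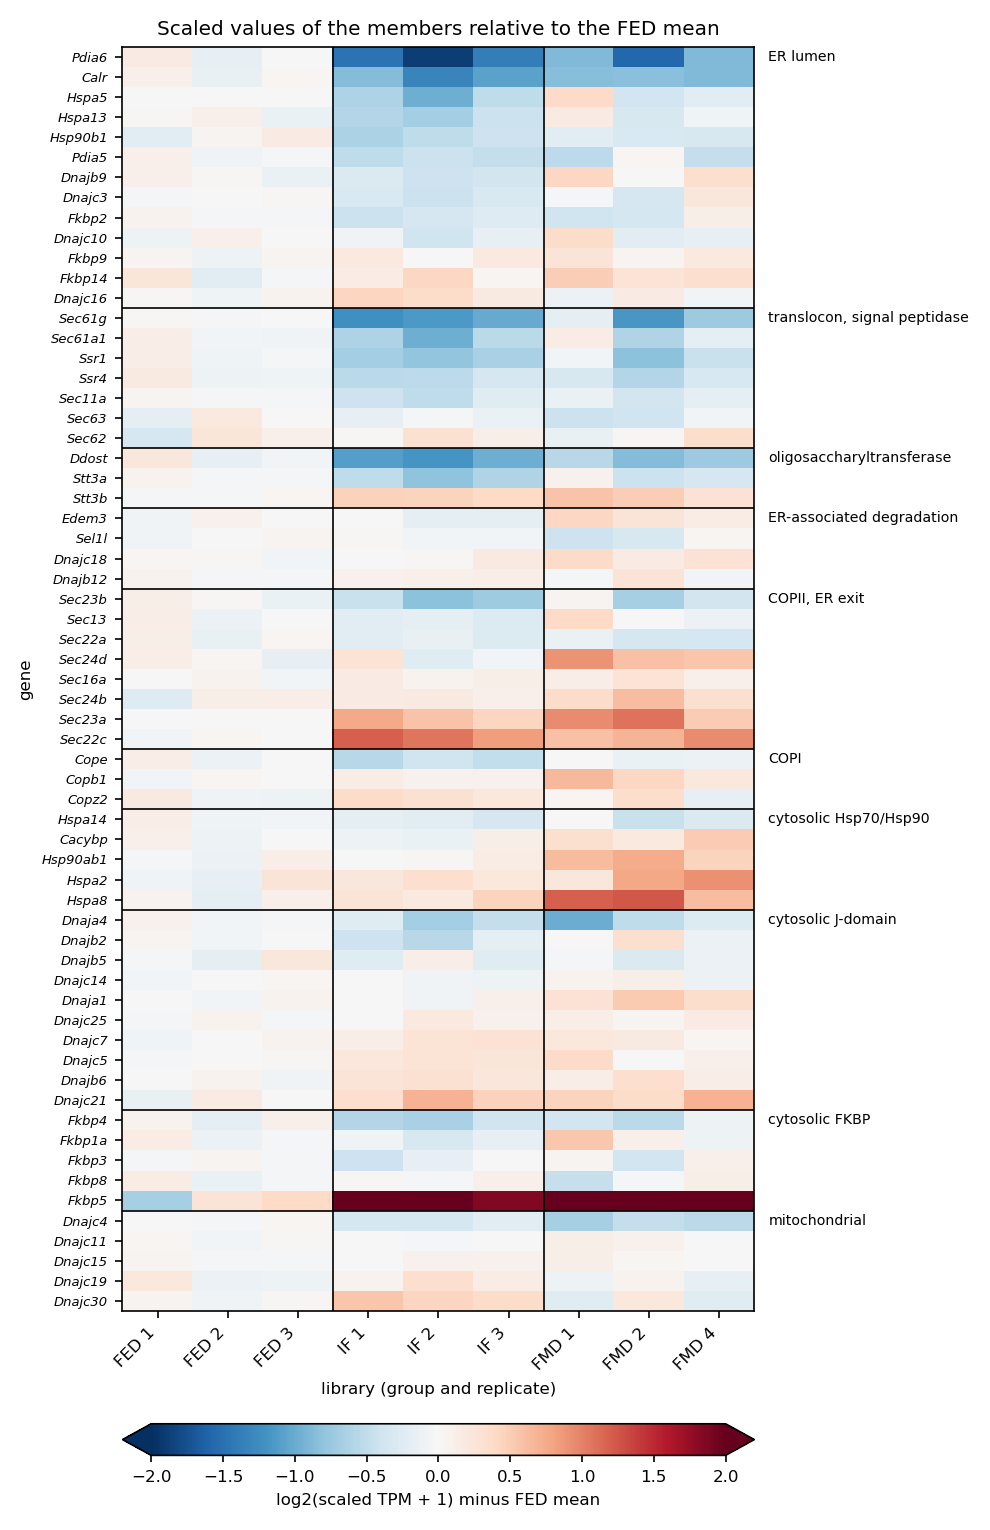
Heat map of log2(scaled TPM + 1) minus the FED mean for the 63 members (rows, in 10 role groups) in the 9 libraries (columns), with red above and blue below the FED mean and the colour scale ending at -2 and 2, which Fkbp5 passes. Pdia6, Calr, Sec61g and Ddost are blue in all IF libraries, and Hspa8, Hsp90ab1, Sec23a and Sec24d are red in all FMD libraries.

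Beyond the members, 112 other genes of these pathways in 8 lists were tested. In IF vs FED 6 were called higher and 6 lower, in FMD vs FED 42 and 1, and in FMD vs IF 13 and 0. Shares of all genes tested were 10.3% and 1.59%, 35.5% and 1.61%, and 4.67% and 0.472%, so that the 42 lay near the share of all genes. After scaling the counts were 2 and 14, 4 and 6, and 3 and 0, against 3.69% and 3.45%, 5.49% and 5.64%, and 1.11% and 1.11% of all genes. Without FMD replicate 1 the 42 became 27 as deposited, and the 6 lower after scaling became 10. The median log2 fold changes were 0.13, 0.51 and 0.35 as deposited, and -0.13, -0.01 and 0.09 after scaling.

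Of 12 further folding factors of the ER lumen, 3 were called lower in IF vs FED (1.59% of all genes) and 0 higher. Sdf2l1, which works with BiP and its J-domain partners, was at 52.7, 33.7 and 54.6 TPM in FED, 14.9, 6.11 and 14.7 TPM in IF and 26.5, 8.58 and 16.7 TPM in FMD. All IF and FMD libraries were below all FED libraries, and it fell in IF livers (-1.95 ± 0.39, adjusted p = 0.00687) and in FMD livers (-1.49 ± 0.39, adjusted p = 0.00815) vs FED. Ppib, cyclophilin B, and Manf, a BiP-binding factor of the lumen, were called lower in IF vs FED as deposited and after scaling, where their values were -1.20 and -1.28. P4hb, the archetypal protein disulfide isomerase, was at 692, 589 and 638 TPM in FED, 661, 635 and 648 TPM in IF and 1358, 974 and 1012 TPM in FMD, and was called higher in FMD vs FED (0.79, adjusted p = 0.0014), as was the oxidase Ero1a (0.77), neither of them called after scaling. In FMD vs FED 2 of the 12 were called higher and 1 lower as deposited (35.5% and 1.61% of all genes). After scaling 0 were called higher and 3 lower (5.49% and 5.64% of all genes), with a median of -0.46. Without FMD replicate 1 the 3 became 5.

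Among 12 sensors and factors of the unfolded protein response, Ern1, which encodes IRE1, was called lower in IF vs FED (-0.70, adjusted p = 0.0135). With FMD, 5 were called higher than in FED, against 35.5% of all genes, and 2 higher and 1 lower after scaling. Among the 5 were Atf6 (0.88) and Ppp1r15a, the GADD34 phosphatase subunit (1.14), and Ppp1r15a was also called after scaling, a call lost without FMD replicate 1. Eif2ak3, which encodes PERK, was at 5.64, 4.50 and 4.73 TPM in FED, 4.54, 3.68 and 4.54 TPM in IF and 17.4, 8.03 and 8.21 TPM in FMD and was called higher in FMD vs IF (1.14, adjusted p = 0.0282), after scaling too (0.89), and without FMD replicate 1 (0.80, scaled 0.66). That library stood apart for a pair of stress-induced genes named after their values were seen. Ddit3, which encodes CHOP, was at 10.25, 8.75 and 5.67 TPM in FED, 8.01, 7.17 and 7.46 TPM in IF and 121, 11.8 and 12.1 TPM in FMD, and Trib3, a pseudokinase induced by ER stress, at 6.49, 5.49 and 3.47 TPM in FED, 9.64, 8.51 and 7.79 TPM in IF and 83.8, 17.3 and 15.2 TPM in FMD. Ddit3 was called in no comparison, and its log2 fold change in FMD vs FED was 1.60 with and 0.52 without FMD replicate 1. Trib3 was called higher in FMD vs FED with it (2.28) and without it (1.52).

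In targeting and translocation, 14 genes were tested. Tram2 rose in IF vs FED (1.19) and FMD vs FED (1.44) while its relative Tram1, which helps chains into the Sec61 channel, fell in IF vs FED (-0.60, adjusted p = 0.0399). Of 15 genes of export and retrieval, 4 were called higher for IF and 8 for FMD against FED, led by the cargo receptor Tmed5 (1.54 and 1.90, both called after scaling). The shares of all genes were 10.3% and 35.5%. After scaling Tmed5 was the only one of the 15 called higher in either comparison, and without FMD replicate 1 the 8 as deposited became 5. Mia2 and Mia3, which organise ER exit sites for large cargo, rose by 0.86 and 0.80 in IF vs FED. Kdelr2, a receptor that retrieves lumenal proteins, rose in FMD vs IF (0.87). Of 12 genes of glycan addition and trimming, Tmem258, a small oligosaccharyltransferase subunit, was called lower in IF vs FED (-0.76, adjusted p = 0.0408). In FMD vs FED 2 of the 12 were called higher (35.5% of all genes), and 0 after scaling.

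Of 21 genes of degradation and quality control, 1 (Ubxn6) was called higher for IF and 7 for FMD against FED. The shares of all genes were 10.3% and 35.5%, and the 7 lay near the latter. After scaling 0 were called higher for either, and 1 was called lower for IF (3.45% of all genes). Herpud1, a target of ER stress in the Hrd1 complex, was called higher in FMD vs IF (0.87, adjusted p = 0.0169), a call lost after scaling. Of 20 other cytosolic chaperones and co-chaperones, 0 were called for IF and 11 for FMD against FED (35.5% of all genes), all higher, with Tcp1 of the TRiC chaperonin at 1.06. After scaling 0 were called in FMD vs FED and 2 were called lower in IF vs FED. Without FMD replicate 1 the 11 became 7. Chordc1, which binds Hsp90, was at 15.8, 15.2 and 16.4 TPM in FED, 13.3, 10.6 and 12.1 TPM in IF and 46.9, 34.9 and 23.9 TPM in FMD, and its FMD vs IF change of 1.44 ± 0.20 (adjusted p = 0.00693) held after scaling (1.17). Of 6 other mitochondrial chaperones 4 were called higher in FMD vs FED (35.5% of all genes), among them Hspd1, mitochondrial Hsp60 (0.82), and 0 after scaling.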

How the data were processed

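RNA-seq of the liver of 9 mice (3 FED, 3 IF, 3 FMD) was analysed. Per the study's methods, RNA of RIN above 8 was oligo-dT enriched and made into strand-specific libraries sequenced on DNBSEQ. The submitters' processing notes name the build mm39. The aligner and counter are not given in the sources used here. The authors deposited TPM values with 2 decimals, 1 column per library, and these were not altered. Read counts and depth are unknown, so that no counting error is given. Nothing in the labels pairs mice or gives batches.

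The 4665 genes with a mean of at least 1 TPM were fitted as log2(TPM + 1) with limma 3.58.1 in R 4.3.3 (lmFit, eBayes with a trend, 1 fit of all 9 libraries). P-values were adjusted over all genes tested, and calls needed an adjusted p under 0.05 and a change over 1.5-fold. Scaled values were divided by size factors of 0.815 to 0.843 in FED, 0.962 to 1.03 in IF and 1.09 to 1.43 in FMD. The fit was tested on simulated data with independent noise, for IF vs FED only. The simulated data held no shift of whole libraries and no library that stood apart like FMD replicate 1. They can therefore not show how the fit handles these features of the data. IF vs FED and FMD vs FED share the FED libraries. Alternatives covered the pseudocount (0.1), the filter, scaling, a replicate block, 1 fit per pair of groups, the trend, the fold limit and each library left out. The last and the block were also run on scaled values, an addition made after seeing the data.

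Named in each role group are the genes set as anchors and up to 4 called genes with the largest change per comparison. Of the other pathway lists, up to 3 genes with the smallest adjusted p are named. Members and lists were chosen with earlier results of these data known. Promoter windows came from RefSeq (GRCm38.p6), not the build of the TPM values. Python 3.11.15 was used for tables (pandas 2.3.3, numpy 2.4.6) and plots (matplotlib 3.10.9).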

Additional observations from a re-analysis of the deposited data

How the results depend on the processing

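Members are counted as called higher or lower. With scaled values the counts became 2 higher and 9 lower for IF vs FED, 7 and 5 for FMD vs FED, and 2 higher in FMD vs IF, which follows in part from removing the median change of all genes. Without a limit on the fold change 12 members were higher in the IF and 1 (Pdia6) lower in the FMD comparison with FED. With 1 fit per pair of groups 0 were called in FMD vs IF; the cause was not tested. Leaving out 1 library gave 5 to 9 higher and 3 to 4 lower for IF vs FED, 19 to 34 higher and 0 to 1 lower for FMD vs FED, and 0 to 21 higher in FMD vs IF. A pseudocount of 0.1, no filter and no trend kept each of these counts within 1.5 times. Shares of all genes called are given for the main and the scaled fit only. Under the other settings, changes of the members can not be told from changes of the whole table.

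With a replicate block 24 members were higher in FMD vs IF, and the other counts stayed within 1.5 times. Deviations of libraries with the same number correlated at 0.00 to 0.18 in 7 pairs, and those of the 20 other pairs of libraries at -0.20 to 0.21. These ranges overlap and do not settle whether the numbers mark pairs. The labels name no pairs, so the numbers were not taken as such. Sec61g in FMD vs FED ranged from -0.51 without FMD replicate 1 to 0.13 without FMD replicate 2. The unknown depth and 3 mice per group limit what low genes such as Hspa2 and Dnajc18 can show.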
